A study of Mus musculus with 20 samples.

Results

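Zinc and copper transport genes were followed through RNA recovered with iron regulatory protein 1 (IRP1) and through matched control reactions from 5 mouse tissues. The genes were every member of the zinc transporter families Slc30a and Slc39a on the array, the copper importers Slc31a1 and Slc31a2, the copper ATPases Atp7a and Atp7b, the copper chaperones Atox1 and Ccs, and the metallothioneins Mt1, Mt2, Mt3 and Mt4. A gene counted when the annotation gave at least 1 probe set its symbol alone. This left 34 genes of 18193 measured, 10 of them Slc30a, 14 Slc39a, 2 copper importers, 2 ATPases, 2 chaperones and 4 metallothioneins. These genes have 58 probe sets among the 45037 tested. Where a gene had several, the brightest on average over the 20 arrays stands for it.

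Recombinant His-tagged IRP1 made in E. coli was added to 50 µg of pooled total RNA from C57BL6/J mice of both sexes and drawn down with a rabbit polyclonal anti-IRP1 antibody, and in the control reaction the protein was left out. Brain, bone marrow, spleen, liver and duodenum have 2 reactions with IRP1 and 2 controls each, every one read on 1 Affymetrix Mouse430_2 array from about 120 ng of recovered RNA. Duodenum, liver and spleen came from mice weaned onto an iron-poor diet (below 10 mg/kg) for 21 days, while bone marrow and brain were taken at 8 to 10 weeks from mice with normal dietary iron. RNA was pooled over mice (4 for 1 of the duodenum samples, 6 for bone marrow and for brain), so p-values measure the spread between reactions and arrays, which may be technical, and the number of arrays limits the precision. The effects of tissue, diet and age cannot be told apart. The control signal is RNA carried through the reaction without IRP1, and it is used here as the measure of a gene's level in each tissue. In tissue RNA a lower signal can come from fewer cells of a type or from less RNA per cell, which cannot be told apart.

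Zinc enters the cytosol through the ZIP carriers (Slc39a) and leaves it, towards the outside or into vesicles and organelles, through the ZnT carriers (Slc30a). Copper enters through Slc31a1, is handed by Atox1 to the ATPases Atp7a and Atp7b for export or loading onto enzymes, and by Ccs to superoxide dismutase. Metallothioneins are small cysteine-rich proteins that bind zinc and copper, and the transcription factor MTF1 turns on Mt1 and Mt2 when zinc is high, through short DNA motifs called metal response elements. IRP1 instead recognises an RNA stem-loop, the iron-responsive element (IRE), known from mRNAs of iron metabolism. The question put to these genes is whether mRNAs of other metals are among those recovered with IRP1, and how the genes differ between tissues.

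The metallothioneins are shown first as sequence, because the replicates of duodenum and liver stood apart in both Mt1 and Mt2. Mt4, Mt3, Mt2 and Mt1 are consecutive protein-coding genes in that order on chromosome 8. The 250 bases before the annotated start of the latter 3, from RefSeq on GRCm38.p6, lie on the plus strand at chr8:94152357-94152606 for Mt3, chr8:94172368-94172617 for Mt2 and chr8:94178839-94179088 for Mt1. Capitals mark matches to TGCACNC or TGCGCNC, the core letters of the metal response element, on either strand.
Mt3: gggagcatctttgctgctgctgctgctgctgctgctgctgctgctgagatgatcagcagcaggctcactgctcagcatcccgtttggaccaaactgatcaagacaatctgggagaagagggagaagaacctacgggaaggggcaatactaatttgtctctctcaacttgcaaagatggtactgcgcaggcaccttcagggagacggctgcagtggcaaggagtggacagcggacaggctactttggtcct
Mt2: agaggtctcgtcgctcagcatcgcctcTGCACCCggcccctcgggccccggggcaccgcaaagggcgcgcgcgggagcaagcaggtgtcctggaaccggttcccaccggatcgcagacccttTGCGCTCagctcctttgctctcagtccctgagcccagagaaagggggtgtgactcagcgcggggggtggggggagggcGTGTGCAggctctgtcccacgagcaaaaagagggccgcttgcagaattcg
Mt1: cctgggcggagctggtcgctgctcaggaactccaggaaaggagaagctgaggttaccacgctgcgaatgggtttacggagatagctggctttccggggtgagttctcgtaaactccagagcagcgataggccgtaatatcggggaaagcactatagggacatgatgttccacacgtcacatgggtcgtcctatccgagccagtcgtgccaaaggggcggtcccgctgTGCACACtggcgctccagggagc
The Mt2 window held 3 matches, beginning 223, 128 and 50 bases before the start, the last on the opposite strand. The Mt1 window held 1, beginning 23 bases before the start, and these letters did not occur in the Mt3 window. The window of Mt4, which was dim in every array and is not printed, held 1 on the opposite strand, beginning 91 bases before the start. Of 32851 promoter windows of this length, 21.4% held at least 1 match, 5.17% at least 2 and 1.26% at least 3. Promoter windows were found for 29 of the 34 genes, and 16 of the 29 held a match in at least 1 of their windows. Slc30a10 also had 3 matches in its window, and Atp7a, Slc30a2 and Slc30a4 had 2. A match describes the letters in the window and is not evidence of a bound site. Bases outside the window were not searched, and the window depends on the annotated start. A count is therefore not the number of metal response elements of a gene.

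Array medians ran from 5.50 to 5.62 in log2 signal, and standard deviations over probe sets from 1.90 to 2.24. Arrays of the same tissue correlated over probe sets at 0.978 to 0.994 and arrays of different tissues at 0.745 to 0.951. The labelled tissues carried their own markers: in the controls, enterocyte markers averaged 13.42 in duodenum, hepatocyte markers 13.96 in liver, neuron markers 10.63 in brain, macrophage markers 11.12 and lymphocyte markers 9.55 in spleen, and markers of neutrophil precursors 13.12 in bone marrow. Duodenum also carried markers of pancreatic acinar cells (5 of 6 listed markers measured), whose mean was 13.43 and 14.29 in its control arrays and 12.72 and 14.02 with IRP1. Spleen carried them at 9.51 to 10.55, and the other tissues stayed at 7.04 or below. Hepatocyte markers (5 of 6 measured) set the spleen replicates apart in both reactions, at 6.38 and 8.63 in the controls and 6.45 and 8.47 with IRP1, and brain replicate 1 exceeded replicate 2 by 1.51 in the controls and 1.11 with IRP1. Slc39a8, the gene highest in liver by the widest called margin, read 7.16 and 7.18 in these spleen controls. These values cannot show how much liver RNA the spleen samples held, and its part in the spleen values was not tested. Of the 34 genes, 4 lay below the median of all probe sets (5.56) on average.

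In the mean of the 5 tissues, 0 of the 34 genes rose with IRP1 and 1 fell, where 0.773% of all probe sets were called higher and 1.03% lower (limma, Benjamini-Hochberg adjusted p under 0.05 over 45037 probe sets, which is the rule for every call here). At an unadjusted p under 0.05 there were 2 higher and 7 lower. The share of all probe sets at unadjusted p was not counted, so such counts are not read as a trait of these genes. The gene that fell was Atox1, the chaperone that carries copper to Atp7a and Atp7b. Its control arrays read 9.98 and 10.19 in duodenum, 10.21 and 9.70 in liver, 10.40 and 10.79 in spleen, 8.80 and 9.18 in bone marrow, and 8.78 and 8.79 in brain. With IRP1 they read 9.70 and 9.84, 9.45 and 9.55, 9.63 and 9.94, 9.01 and 8.95, and 7.61 and 8.47. Both IRP1 arrays lay below both controls in 4 tissues and overlapped them in bone marrow. The mean difference was log2 -0.47 (SE 0.11, limma adjusted p = 0.0438). A dimmer probe set of Atox1 fell by 0.53 on the log2 scale (SE 0.083, limma adjusted p = 0.00279), with IRP1 arrays below the controls in all 5 tissues. Its remaining probe sets, dimmer again, were not called (log2 -0.16, limma adjusted p = 0.504, and 0.14, limma adjusted p = 0.420). The call of the brighter probe set rests on the full set of arrays: it stayed only when the array left out was liver control 2, spleen control 1, spleen IRP1 2, bone marrow control 1 or brain IRP1 2. Leaving out any of the other 15 arrays lost the call, with an adjusted p of up to 0.110.

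For scale, the IRE mRNAs rose in the same mean by log2 1.36 for Slc40a1 (the iron exporter ferroportin), 2.19 for Tfrc (transferrin receptor), 2.22 for Alas2 (heme synthesis), 1.35 for Epas1 (HIF-2 alpha) and 0.84 for Fth1 (ferritin heavy chain). The 34 genes ran from -0.47 to 0.26, with a median of -0.13 against -0.0056 for all probe sets. The highest upper 95% limit among them was log2 0.43, a 1.35-fold increase, and the lowest lower limit was -0.78. Single tissues were less precise. Their highest upper limits were 0.85 in duodenum, 1.04 in liver, 0.88 in spleen, 1.17 in bone marrow and 0.73 in brain. In all but brain this exceeds the rise of Fth1 in the mean. Within tissues, Fth1 itself rose by less than these limits in duodenum, liver and brain, and by more in spleen and bone marrow. In brain its mean was 13.70 in the controls and 14.27 with IRP1, so the brain limit does not exclude a rise of that size. These limits are set gene by gene with no correction for 34 genes.

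**Figure D1:**
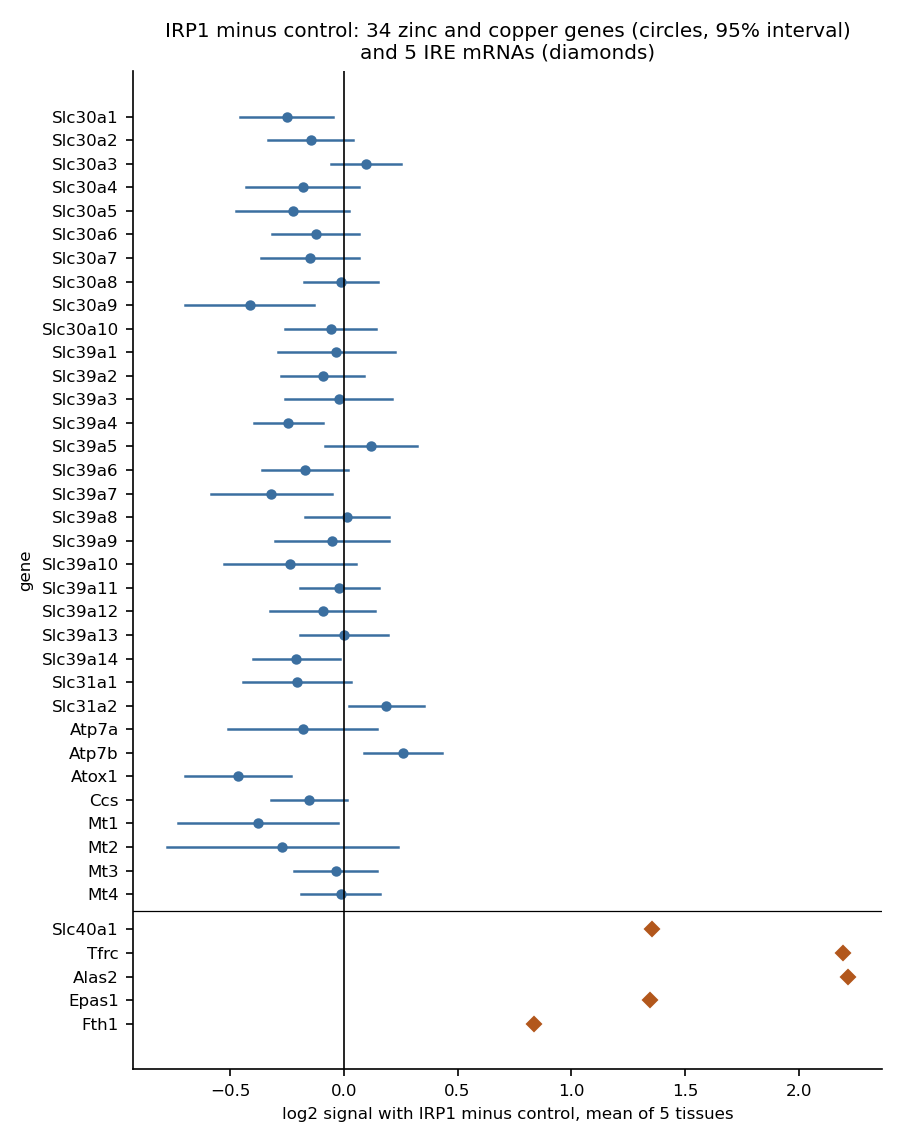
Log2 signal with IRP1 minus control (horizontal axis, mean of 5 tissues) for each of the 34 genes with its 95% interval from the fit (circles and lines) and for 5 IRE mRNAs as point estimates (diamonds). The circles lie between -0.47 (Atox1) and 0.26 (Atp7b), and the diamonds between 0.84 and 2.22.

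The differences closest to a call after Atox1 were in both directions. Slc39a4, the zinc carrier of the intestinal brush border, stood at log2 -0.24 (SE 0.072, limma adjusted p = 0.0920), and Slc30a9, a mitochondrial zinc transporter, at -0.41 (SE 0.13, adjusted p = 0.123 by limma). Atp7b, the ATPase that sends copper into bile, stood at 0.26 (SE 0.081, limma adjusted p = 0.110), while its other probe sets stood at -0.17 and -0.04. None of these 3 genes passed.

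Single tissues gave no call among 170 combinations of gene and tissue. All probe sets were called at 0.104% in duodenum, 0.184% in liver, 0.102% in spleen, 0.131% in bone marrow and 0.124% in brain. At an unadjusted p under 0.05, liver had 3 higher and 11 lower, spleen 0 and 4, duodenum 0 and 1, brain 0 and 1, and bone marrow 0 in either direction. Here too the share of all probe sets at that level was not counted. The smallest adjusted p was in liver, for Slc39a4 (log2 -0.77, SE 0.16, limma adjusted p = 0.0789), with control arrays at 9.35 and 9.34 and IRP1 arrays at 8.53 and 8.62. With values below the overall median raised to it, that difference was called (limma adjusted p = 0.00306). The floor left the liver values and the difference as they were and lowered the SE to 0.10. It also set all brain values of the gene equal, so that call adds nothing on the liver arrays. No gene's difference varied between tissues by the F test (0 called, 1 at an unadjusted p under 0.05, smallest limma adjusted p 0.930), for which 0.0111% of probe sets were called.

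Both IRP1 arrays lay below both controls for 16 of 34 genes in liver (26% of all probe sets) and for 15 in spleen (22.1%). The median difference of the 34 genes in liver was -0.33, against -0.02 for all probe sets. Of the 34, 22 lie above the 75th percentile of mean signal, and in liver these had a median of -0.45, where all probe sets that bright had -0.27. The other genes had -0.10, where the other probe sets had 0.03. The liver IRP1 arrays also had the narrower spread of signal (SD 1.90 and 1.95, against 2.11 and 1.99 in the controls), and its part in the liver differences was not tested. With each array's spread as a covariate in the fit, the Atox1 call in the mean was lost (limma adjusted p = 0.110). Over all tissues, 0 of the 34 genes had IRP1 arrays above controls in all 5 (0.409% of probe sets) and 0 below in all 5 (0.147%).

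Tissues differed for most of the genes. Among the controls, 30 of 34 were called by an F test over the 5 tissues, against 63.1% of all probe sets and 72.9% of genes with 1 probe set each. The exceptions were Slc30a8 (the zinc transporter of insulin granules), Slc39a7 (which releases zinc from the endoplasmic reticulum), Atp7b and Mt4. The median range between the highest and lowest tissue was log2 2.25 for the 34 genes and 1.27 for all genes. Of the 34, 18 had a range over log2 2 (52.9%, against 32.3% of genes) and 7 had one over 4 (11.7% of genes had one). The ranges were not compared at matched signal, and 22 of the 34 lie above the 75th percentile of mean signal. The part of brightness in the wider ranges was not tested. Duodenum was the highest tissue for 19 genes (55.9%, against 21.2% of all genes), brain for 9 (26.5%, against 21.3%) and liver for 4 (11.8%, against 22.9%). Spleen and bone marrow were highest for 1 each (2.94%, against 16.6% and 18% of all genes). The highest tissue was called over the next one for 12 genes in duodenum, 5 in brain, 2 in liver, 1 in bone marrow and 0 in spleen. The share of all genes with such a call was not counted, so these counts are not read as a trait of the 34. With IRP1 in place of the control, duodenum was highest for 18 (20.3% of all genes), brain for 9 (20.4%) and liver for 3 (26.3%). Spleen was highest for 1 (11.1%) and bone marrow for 3 (21.9%). Of the 34, 29 had the same highest tissue in both reactions, a count for which the share of all genes was not computed either. Over the 10 pairs of tissues, 191 of 340 differences were called, where the share over all probe sets was 33.8%. That share includes dim probe sets and those without a gene, while each of the 34 genes stands by its brightest, so the bases are unlike.

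**Figure D2:**
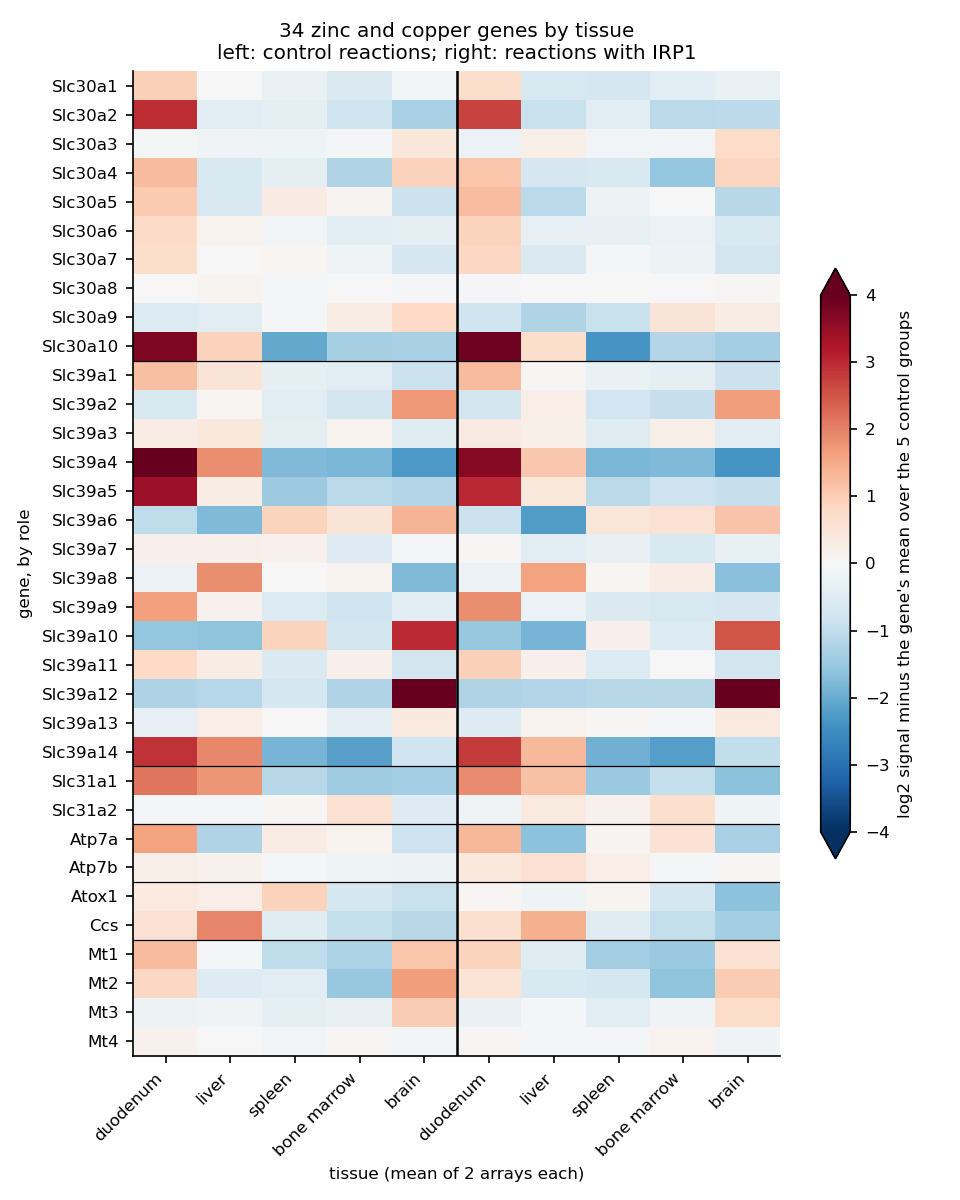
Mean log2 signal of 2 arrays per tissue minus the gene's mean over the 5 control groups (colour), for the 34 genes in rows ordered by role (Slc30a, Slc39a, copper uptake, copper ATPases, copper chaperones, metallothioneins, separated by lines) and the tissues in columns, controls on the left and IRP1 reactions on the right. The pattern on the right repeats the left for most genes, and the darkest red cells are Slc39a4 and Slc30a10 in duodenum and Slc39a12 in brain.

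Against the mean of the other 4 tissues, duodenum had 17 genes higher (15.5% of probe sets) and 5 lower (18.6%). The shares in brackets are over all probe sets, dim ones included, while each gene stands by its brightest, so the bases are unlike. Liver had 8 higher (16.6%) and 7 lower (22.8%). Spleen had 3 higher (19.5%) and 13 lower (16.3%), and bone marrow 2 higher (15%) and 20 lower (20.1%). Brain had 11 higher (19.6%) and 18 lower (25.3%). Without spleen control 2, the spleen control with the higher hepatocyte markers, spleen had 2 higher and 9 lower.

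Among the ZnT carriers, 7 of 10 were higher in duodenum than in the other tissues and 1 was lower. Slc30a10, a carrier known mainly for exporting manganese, read 10.92 and 10.77 in the duodenum controls and 10.97 and 11.05 with IRP1. In liver it read 7.78 and 8.34 in the controls and 7.61 and 8.03 with IRP1. The arrays of the other 3 tissues lay between 4.62 and 6.01. Duodenum, liver and the rest therefore formed 3 levels with no overlap, and duodenum exceeded liver by log2 2.79 (SE 0.21, limma adjusted p = 1.66e-08) and liver exceeded brain by 2.22. Bone marrow also exceeded spleen, by 0.70 (limma adjusted p = 0.0283), while brain and bone marrow did not differ beyond their spread.

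Slc30a2, which loads zinc into secretory vesicles, read 8.11 and 7.74 in the duodenum controls and 7.52 and 7.84 with IRP1. All 16 arrays of the other tissues lay at 4.80 or below. Duodenum exceeded spleen, the next tissue, by log2 3.32 (SE 0.20, limma adjusted p = 7.21e-10). The others differed from their neighbours in order by 0.09 to 0.50, none called.

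Slc30a1, the exporter of the plasma membrane, was bright everywhere and ranged from 9.68 in bone marrow to 11.20 in duodenum. Duodenum exceeded liver by 0.92 (SE 0.22, limma adjusted p = 0.00373), and liver, brain, spleen and bone marrow overlapped in turn. Slc30a5, Slc30a6 and Slc30a7, the carriers of the early secretory pathway, were also highest in duodenum, at 10.64, 8.18 and 9.71. Slc30a4 was high in duodenum (9.27) and brain (8.92), which did not differ beyond their spread, and brain exceeded spleen by 1.31. Slc30a3, which fills synaptic vesicles with zinc, was highest in brain at 7.65 against 7.01 to 7.12 elsewhere (brain over bone marrow 0.53, SE 0.16, limma adjusted p = 0.0152). Slc30a9 was also highest in brain, at 10.28, though not beyond bone marrow at 9.78.

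The ZIP carriers fell into groups by tissue. Slc39a4, whose human counterpart is mutated in the zinc deficiency acrodermatitis enteropathica, had the widest range of the 34 genes by their main probe sets. Its controls read 11.53 and 11.55 in duodenum and 9.35 and 9.34 in liver, and its IRP1 arrays 11.14 and 11.14, and 8.53 and 8.62. The 12 arrays of spleen, bone marrow and brain lay between 4.97 and 5.92. Duodenum exceeded liver by log2 2.20 (SE 0.16, limma adjusted p = 1.03e-08) and liver exceeded spleen by 3.63.

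Slc39a5, a basolateral zinc carrier of enterocytes and pancreatic acinar cells, read 9.96 and 9.51 in the duodenum controls and 9.34 and 9.31 with IRP1. Liver read 6.63 and 6.57, then 6.61 and 6.87. The 12 arrays of spleen, bone marrow and brain lay between 4.69 and 5.72. Duodenum exceeded liver by 3.14 (SE 0.21, limma adjusted p = 4.05e-09), and bone marrow, brain and spleen did not differ beyond their spread. Spleen, where the acinar markers averaged 9.83 in the controls, had Slc39a5 at 4.86, and bone marrow, where they averaged 6.05, had it at 5.23. The part of pancreatic RNA in the duodenum values of these genes was not tested.

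Slc39a14, which carries zinc, manganese and iron not bound to transferrin, read 11.56 and 11.83 in the duodenum controls and 11.46 and 11.77 with IRP1. In liver it read 10.99 and 10.50, then 9.96 and 10.23, and in brain 7.87 and 8.18, then 7.71 and 7.94. Spleen and bone marrow arrays lay between 6.51 and 7.13. Duodenum exceeded liver by 0.95 (SE 0.20, limma adjusted p = 0.00177), liver exceeded brain by 2.72 and brain exceeded spleen by 1.07. Slc39a9, a carrier of the Golgi, was highest in duodenum too, at 9.61 against 8.15 in liver.

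Slc39a8, the close relative of Slc39a14 that also carries manganese, had another order. Its controls read 9.07 and 9.07 in liver and its IRP1 arrays 8.62 and 8.96. Bone marrow, spleen and duodenum arrays lay between 6.90 and 7.69, and brain arrays between 5.34 and 5.63. Liver exceeded bone marrow by 1.72 (SE 0.19, limma adjusted p = 1.78e-06) and duodenum exceeded brain by 1.55, with no call between bone marrow, spleen and duodenum as neighbours.

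Brain was the highest control tissue for Slc39a12, Slc39a10, Slc39a2, Slc39a6 and Slc39a13, the last not beyond liver. Slc39a12, known as a zinc carrier of the brain, read 9.01 and 9.64 in the brain controls and 8.79 and 9.53 with IRP1. The 16 other arrays started at 3.70, and the highest tissue among them, spleen, had a control mean of 4.33 against 9.33 in brain (SE of the difference 0.24, limma adjusted p = 2.93e-11). The other tissues did not differ beyond their spread. Astrocyte markers averaged 9.80 and neuron markers 10.63 in the brain controls.

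Slc39a10, a carrier of the plasma membrane, read 12.12 and 11.58 in the brain controls and 11.06 and 11.67 with IRP1. Spleen read 9.58 and 9.88, then 8.75 and 9.37, and bone marrow 7.81 and 8.43, then 8.53 and 8.09. Duodenum and liver arrays lay between 6.77 and 7.55. Brain exceeded spleen by 2.12 (SE 0.31, limma adjusted p = 2.40e-05) and spleen exceeded bone marrow by 1.61. Its close relative Slc39a6 read 10.31 and 9.91 in the brain controls, 9.71 and 9.58 in spleen and 9.08 and 9.47 in bone marrow, where neighbours in the order did not differ beyond their spread. Duodenum read 7.62 and 7.84 and liver 7.11 and 6.82, and bone marrow exceeded duodenum by 1.54 (SE 0.20, limma adjusted p = 8.98e-06). Both genes were thus low in duodenum and liver and high in brain, the reverse of Slc39a4 and Slc39a5.

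**Figure D3:**
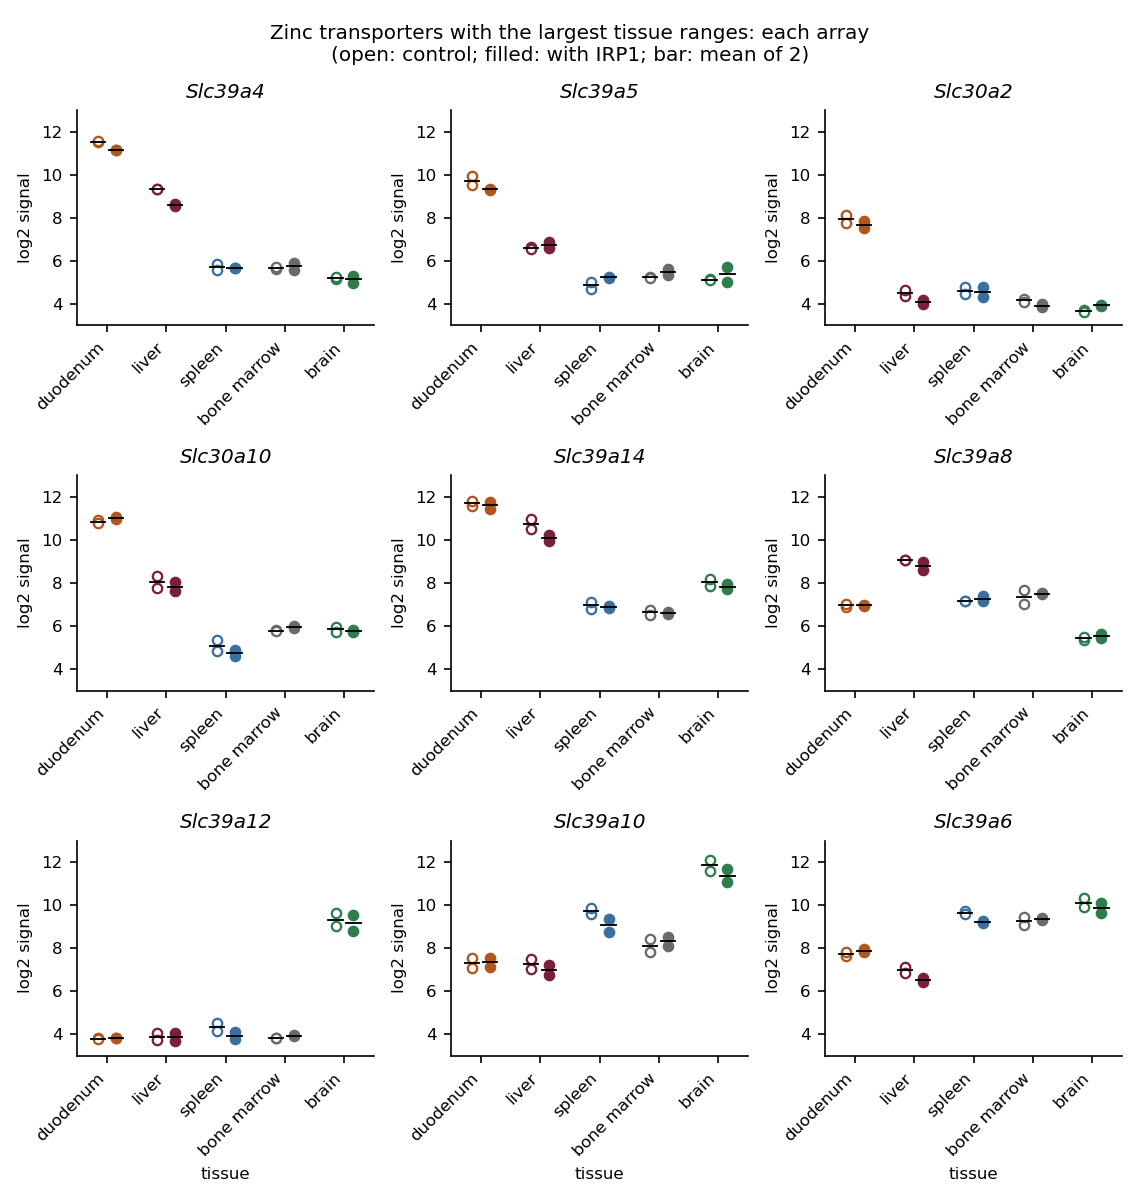
Log2 signal (vertical axis) of 9 zinc transporters with wide tissue ranges in every array, by tissue, with controls as open and IRP1 reactions as filled circles and bars at the mean of 2. The duodenum points of Slc39a4, Slc39a5, Slc30a2 and Slc30a10 lie above all other points of the gene, as do the brain points of Slc39a12 and Slc39a10, and open and filled points of a tissue lie close together.

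The copper importer Slc31a1 read 9.76 and 10.07 in the duodenum controls and 9.75 and 9.37 in liver, and with IRP1 9.60 and 9.74, and 8.72 and 9.16. The 12 arrays of the other tissues lay between 5.88 and 6.89. Duodenum and liver did not differ beyond their spread, and liver exceeded spleen by log2 2.90 (SE 0.25, limma adjusted p = 7.11e-08). Slc31a2, a relative of Slc31a1 found on internal membranes, was highest in bone marrow at 8.32, above spleen at 7.76 (difference 0.56, SE 0.17, limma adjusted p = 0.0352). That call was lost in 4 of 10 alternative settings of the fit. A dimmer probe set of Slc31a2 spanned only 0.38 between tissues and was not called (F test, limma adjusted p = 0.300).

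The copper ATPases differed in how far they varied. Atp7a, which moves copper out of the enterocyte into the blood and is mutated in Menkes disease, read 9.22 and 9.72 in the duodenum controls and 9.14 and 9.28 with IRP1. Spleen and bone marrow arrays lay between 7.75 and 8.49, and liver and brain arrays between 5.86 and 7.54. Duodenum exceeded spleen by 1.30 (SE 0.35, limma adjusted p = 0.00764). Atp7b, mutated in Wilson disease, read 7.42 and 7.44 in the duodenum controls, 7.41 and 7.30 in liver, 7.12 and 7.15 in spleen, 7.07 and 6.96 in bone marrow and 6.84 and 7.15 in brain. With IRP1 its 10 arrays lay between 7.03 and 7.85. The Atp7b means spanned only 0.43 between tissues by this probe set. A dimmer probe set of Atp7b spanned 2.40, from 5.23 in brain to 7.50 in liver and 7.63 in duodenum (F test, limma adjusted p = 6.93e-08), so the probe sets disagree on whether Atp7b varied.

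The chaperones also differed in order. Ccs, which loads copper into superoxide dismutase, read 11.72 and 11.51 in the liver controls and 11.13 and 11.05 with IRP1. In duodenum it read 10.39 and 10.14, then 10.40 and 10.21, and the other arrays lay between 8.19 and 9.31. Liver exceeded duodenum by 1.36 (SE 0.18, limma adjusted p = 1.35e-05) and duodenum exceeded spleen by 1.06. Atox1 in the controls was highest in spleen at 10.60, though not beyond duodenum at 10.09, and liver at 9.95 exceeded bone marrow at 8.99 by 0.96 (SE 0.25, limma adjusted p = 0.00554).

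By their main probe sets, Mt1 and Mt2 were higher in brain and lower in bone marrow than in the mean of the other tissues. Mt1 was also higher in duodenum, and Mt2 stood at log2 1.05 there (SE 0.42, limma adjusted p = 0.0681), which was not called. Mt1 read 11.55 and 10.67 in the duodenum controls, 10.99 and 10.91 in brain, 10.20 and 9.32 in liver, 8.90 and 8.74 in spleen and 8.46 and 8.68 in bone marrow. With IRP1 it read 11.20 and 10.26, 10.01 and 10.91, 9.57 and 9.14, 8.67 and 8.23, and 8.61 and 8.08. Duodenum and brain overlapped, and brain exceeded liver by 1.19 (SE 0.37, limma adjusted p = 0.0172). The Mt1 probe set is of the kind that can match more than 1 transcript, and a share of Mt2 signal in it was not tested. A dimmer probe set of Mt1 gave another order, with duodenum at 6.54, liver at 6.50, brain at 5.81, bone marrow at 5.60 and spleen at 5.47 (F test, limma adjusted p = 0.00902), so the probe sets disagree on the place of brain.

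Mt2 read 11.41 and 11.47 in the brain controls, 11.16 and 10.07 in duodenum, 9.30 and 9.33 in spleen, 9.91 and 8.62 in liver and 8.04 and 8.48 in bone marrow. With IRP1 it read 10.40 and 11.21, 11.30 and 9.37, 8.93 and 9.20, 9.69 and 8.67, and 8.34 and 8.00. No neighbours in this order differed beyond their spread, while brain exceeded the mean of the other tissues by 2.08 (SE 0.42, limma adjusted p = 0.000603) and bone marrow lay 1.90 below that of the others.

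The replicates of duodenum and liver differed in Mt1 and Mt2 in the same direction in both reactions. In duodenum replicate 1 exceeded replicate 2 by 0.88 for Mt1 and 1.09 for Mt2 in the controls, and by 0.94 and 1.94 with IRP1. In liver the differences were 0.88 and 1.30, then 0.42 and 1.02. In brain the IRP1 replicates differed by -0.89 for Mt1 and -0.81 for Mt2, and the controls by 0.09 and -0.07. In spleen the differences of Mt1 and Mt2 had opposite signs, 0.15 and -0.03 in the controls and 0.44 and -0.26 with IRP1. Over the 34 genes the median difference between replicates in the 4 groups of duodenum and liver lay between -0.22 and 0.08. In duodenum the acinar markers differed alike, by 0.86 in the controls and 1.30 with IRP1, and in liver they differed the other way, by -0.50 and -0.47.

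Mt3, the metallothionein of the nervous system, read 7.08 and 6.37 in the brain controls and 6.41 and 6.50 with IRP1, and all other arrays lay between 5.23 and 5.77. Brain exceeded liver by 1.15 (SE 0.19, limma adjusted p = 0.000127). Mt4, a metallothionein of stratified epithelia, lay between 3.58 and 4.19 in all 20 arrays, and markers of stratified epithelium averaged 5.31 to 5.81. Slc30a8 was likewise dim, with control means from 4.15 to 4.34, and pancreatic islet markers averaged 6.60 in the duodenum controls and 4.72 to 5.45 in the others.

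**Figure D4:**
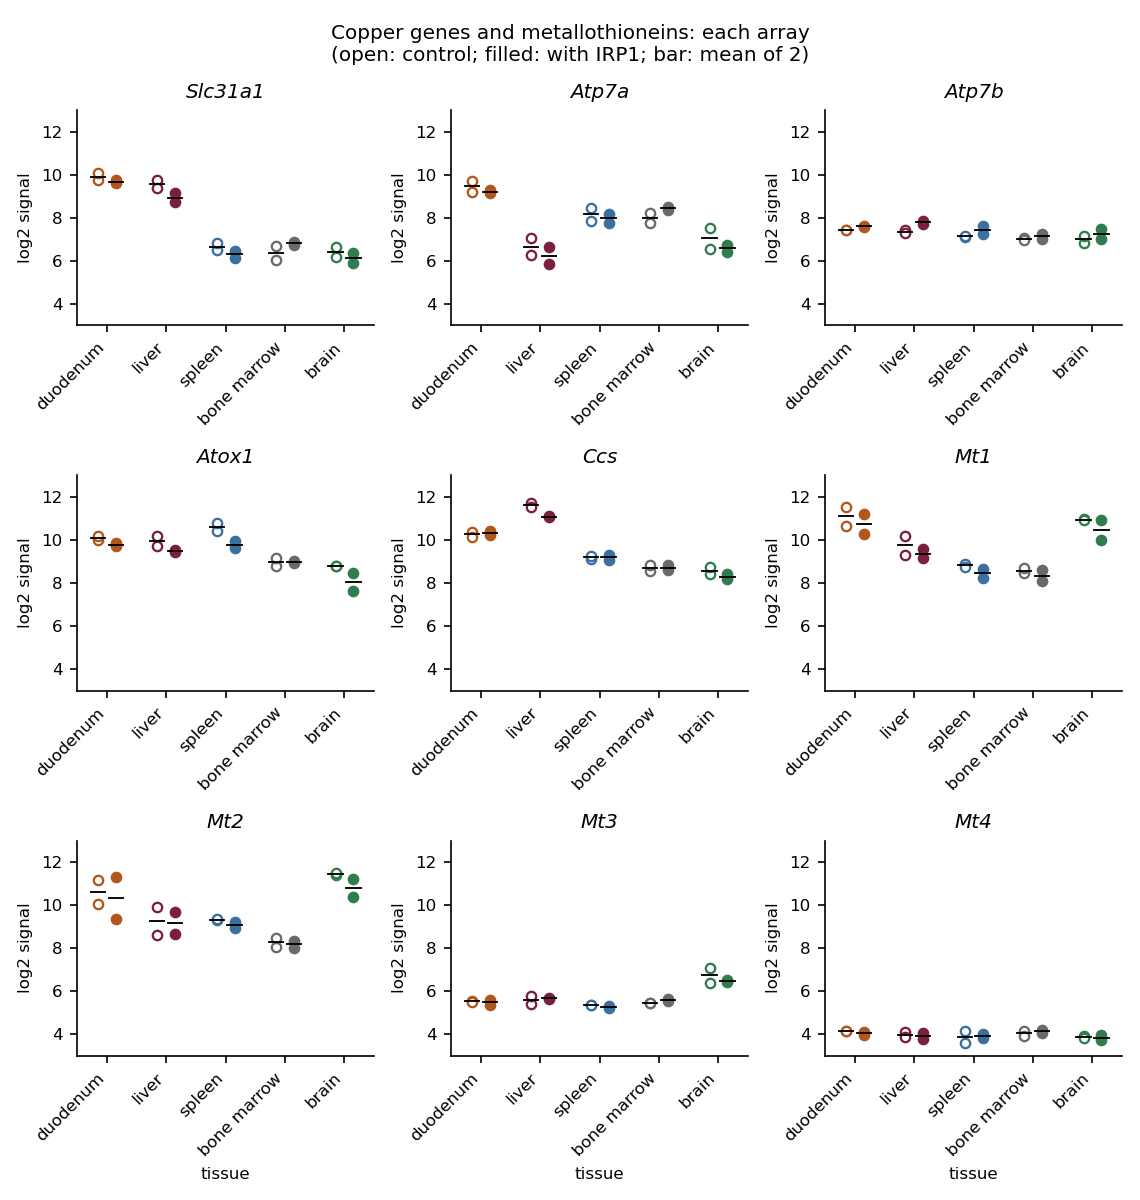
Log2 signal (vertical axis) of copper genes and metallothioneins in every array, by tissue, with controls as open and IRP1 reactions as filled circles and bars at the mean of 2. Atox1 shows filled points below open ones in every tissue except bone marrow, Mt1 and Mt2 show wide gaps between replicates in duodenum and liver and between the IRP1 arrays of brain, and Mt4 stays between 3.58 and 4.19.

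The other 24 probe sets of these genes were used to check the tissue order. Of these, 17 were called by the F test over tissues, 13 of them with the same highest tissue as the gene's main probe set. Slc39a3 was the clearest exception: its main probe set was lowest in brain, at 6.70, and the other was highest there, at 7.92. The rest were dim probe sets of Slc39a6, Slc39a9 and Slc39a14, each highest in liver.

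Other genes that use zinc or copper were drawn up as 4 lists. With IRP1, in the mean of the 5 tissues, 0 of 10 copper delivery genes, 0 of 12 copper enzymes and 0 of 5 zinc-binding or zinc-sensing genes were called. Of 13 zinc enzymes 1 fell, Alad, the zinc enzyme of heme synthesis (log2 -0.41, SE 0.097, limma adjusted p = 0.0454). Median differences were -0.12 for copper delivery, -0.04 for copper enzymes, -0.09 for zinc-binding or zinc-sensing genes and -0.01 for zinc enzymes, against -0.0056 for all probe sets.

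Between control tissues the F test called 9 of 10 copper delivery genes, 10 of 12 copper enzymes, 13 of 13 zinc enzymes and 4 of 5 zinc-binding or zinc-sensing genes, where it called 72.9% of all genes. Heph, the copper oxidase that works with ferroportin in the gut, was 7.09 higher in duodenum than in the mean of the others, and Cp, the copper oxidase of plasma, 5.62 higher in liver. Sco1, which delivers copper to cytochrome oxidase, was 2.77 higher in duodenum, and the metalloreductase Steap4 was 4.70 higher in liver. S100a8 and S100a9, which chelate zinc as the neutrophil protein calprotectin, were 8.16 and 7.46 higher in bone marrow. Alpi, the zinc enzyme of the brush border, and the pancreatic carboxypeptidases Cpb1 and Cpa1 were 8.47, 7.68 and 7.45 higher in duodenum. These differences are in log2 signal.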

How the data were processed

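The values are log2 probe set signals of 20 Affymetrix Mouse430_2 arrays, made and deposited by the authors. The series design text and the submitters' processing notes name RMA or MAS5 (GCOS) followed by quantile normalization, and which of these made the table is not stated. No filter, floor or pseudocount was applied to them, and 64 Affymetrix controls were left out. Signals near the floor compress differences. One linear model with 10 groups of 2 arrays was fitted with limma 3.58.1 in R 4.3.3 (10 residual degrees of freedom, prior 6.14). P-values are two-sided and adjusted over 45037 probe sets within a contrast. Tissue contrasts use control arrays. The fit was tested on simulated data. Figures used Python and matplotlib 3.10.9.

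The 34 genes and all lists were chosen with earlier results of these data known. Values per array are given for genes called with IRP1, the 12 with the largest range between control tissues, metallothioneins, copper ATPases and chaperones, and up to 4 called genes are named per further list. Chosen after seeing the values were the other genes named with group means and the fits with array spread as a covariate or without 3 arrays with dim hybridization controls. Genes without a promoter entry were Slc39a4, Slc39a6, Slc39a14, Slc30a8 and Ccs.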

Additional observations from a re-analysis of the deposited data

How the results depend on the processing

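Of 155 called results for single genes, 113 held under every alternative run. The count lower with IRP1 in the mean of 5 tissues was 0 with a trend and robust prior, 0 with array spread as a covariate and 0 without the 3 arrays with dim hybridization controls, and 0 to 3 without single arrays; the count higher was 0 to 1. The 3 lower were Slc30a9, Slc39a4 and Atox1, without brain IRP1 replicate 2, when Atp7b was higher. With a floor on dim values the 1 gene lower in the mean was Slc39a4 (log2 -0.23, limma adjusted p = 0.0326) in place of Atox1, and calls in single tissues numbered 1, Slc39a4 in liver. The floor sets all brain values of Slc39a4 equal, which lowers the SE, so these calls are no firmer than the main fit. Liver had 13 higher with quantile normalization. Spleen had 5 higher with all probe sets, and without the 3 arrays 8 lower. Bone marrow had 4 higher among the IRP1 arrays, 13 lower without the 3 arrays, and 1 to 3 higher without single arrays. The IRP1 arrays turned the liver differences of Slc30a1 and Slc30a7 to -0.48 and -0.55 (limma adjusted p = 0.0294 and 0.0200). The cause of these shifts was not tested. The duodenum over spleen call of Slc30a7 was lost without 14 of the 20 arrays, and the duodenum over liver call of Slc39a11 without 11.

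Over all probe sets, replicate deviations correlated between the reactions at 0.272 in duodenum, -0.07 in liver, 0.533 in spleen, -0.04 in bone marrow and 0.119 in brain. Some genes differed by replicate number alike in both reactions. Hepatocyte markers did so in spleen (replicate 1 minus 2 was -2.25 in the controls and -2.02 with IRP1) and in brain (1.51 and 1.11). Mt1 and Mt2 did so in duodenum and liver but not in brain. Whether a replicate number stands for 1 RNA pool is not stated, and the main fit has no pairing. With the replicate number as a block, 1 gene was lower in the mean (Atox1, log2 -0.47, limma adjusted p = 0.0344) and no call with IRP1 changed. As a random block in the tissue comparisons it gave 192 called tissue pairs in place of 191 and left the other counts as they were. Fits to 1 tissue alone called 0 of the genes. Over all probe sets they called 38 in duodenum, 34 in liver, 53 in bone marrow, 0 in spleen and 0 in brain. For spleen and brain the result therefore says nothing about these genes, and with so few calls elsewhere it is a weak check. At an unadjusted p under 0.05 these limma fits gave 1 of the genes in duodenum, 12 in liver, 5 in spleen, 0 in bone marrow and 1 in brain. The share of all probe sets at that level was not counted, so these counts are not read as a trait of the genes.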
